A study of Mus musculus with 5 samples.

Results

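Igf2, its antisense transcript Igf2os and the noncoding RNA H19 share a stretch of mouse chromosome 7 and were followed across 5 RNA-seq libraries of primary nephron progenitor cells, from which the nephrons of the kidney form. The 3 genes were taken from the deposited table by symbol. They are 3 of its 53927 rows, and all 3 were among the 14884 genes tested. The cells came from C57BL/6J mouse embryos that were either Dis3l2+/+ (WT, 2 libraries) or Dis3l2-/- (KO, 3 libraries), and were kept in culture for 1 passage before RNA was taken. Dis3l2 encodes an exoribonuclease that degrades uridylated RNA. The age of the embryos, the part of Dis3l2 that was removed and whether libraries came from separate embryos were not given in the sources used here. P-values therefore refer only to how much these 5 libraries vary, part of which may be technical.

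Igf2 encodes insulin-like growth factor 2, the main fetal growth factor, and is expressed from the paternal chromosome in most fetal tissues. H19 is a spliced noncoding RNA expressed from the maternal chromosome. Both respond to shared enhancers, and a methylated control region between them, bound by the insulator protein CTCF when unmethylated, decides which gene those enhancers reach. Igf2os is transcribed in the opposite direction to Igf2 and is also paternally expressed. Loss of imprinting at this locus is known in Wilms tumour, the childhood kidney tumour to which loss of DIS3L2 predisposes.

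By the GENCODE M21 annotation of GRCm38, the same assembly as the mm10 build of the submitters' processing notes, H19 (ENSMUSG00000000031.16) lies at chr7:142575529-142578143 on the minus strand. Igf2 (ENSMUSG00000048583.16) lies at chr7:142650766-142666816 on the minus strand, 72.6 kb away. Igf2os (ENSMUSG00000086266.1) lies at chr7:142659693-142670356 on the plus strand. Igf2 and Igf2os overlap over 7124 bases of their spans but share only 98 exonic bases, 1.71% of the exonic length of Igf2. Igf2 has 4 start sites in the RefSeq promoter table (GRCm38.p6), and 2 of them lie inside the span of Igf2os. H19 and Igf2os have no entry in it.

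The Igf2 start site closest to the end of the gene lies outside the span of Igf2os. The 250 bases before it, chr7:142657497-142657746 on the minus strand, are shown because Igf2 is the coding gene whose levels are described here and this window does not overlap its antisense partner. Another Igf2 window, chr7:142658805-142659054, does not overlap it either and is not shown. Capitals mark the GC box GGGCGG, searched on both strands.

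Igf2 promoter: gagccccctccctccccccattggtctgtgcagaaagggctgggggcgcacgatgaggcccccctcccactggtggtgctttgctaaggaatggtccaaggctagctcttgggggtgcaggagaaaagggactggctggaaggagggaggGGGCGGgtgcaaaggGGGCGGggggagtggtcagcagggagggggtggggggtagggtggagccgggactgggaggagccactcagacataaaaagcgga

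The window holds 2 GC boxes and has a GC content of 66.0%. The windows of the other Igf2 start sites, in order of position, hold 1, 0 and 0 GC boxes, with GC contents of 68.8%, 47.6% and 50.8%. Of 32851 promoter windows of the same length, 32.7% hold at least 1 such box, and the median GC content is 52.4%. A match describes the letters only.

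A microRNA gene lies inside each of the imprinted pair, Mir675 in an exon of H19 and Mir483 in an intron of Igf2. Their mature products, from RefSeq (GRCm38.p6), are shown because their genes lie within those described here, with the seed, bases 2 to 8, in capitals.

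mmu-miR-675-5p: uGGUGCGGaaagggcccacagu
mmu-miR-675-3p: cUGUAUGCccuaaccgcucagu
mmu-miR-483-5p: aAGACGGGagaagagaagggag
mmu-miR-483-3p: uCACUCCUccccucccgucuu

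The 4 seeds differ, and each occurs in 1 of the 1738 mature sequences of that table. Mir675 was at 0 in every library and Mir483 at 0 to 0.11 CPM, or 0 to 5 reads. All 84 bases of Mir675 lie within H19 exons on the same strand. None of 131 short features nested in this way in exons of genes at 50 CPM or more had a read in any library, so the table gives no measure of the microRNA apart from its host.

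Levels are given as deposited, in CPM (reads scaled to a common effective library size). Between 19.6 M and 49.3 M reads were assigned per library, the most in KO replicate 1 and the fewest in KO replicate 3, and 3 reads correspond to 0.0639 to 0.141 CPM. Dis3l2, which checks the labels, was at 16.04 and 12.2 CPM (WT) against 6.50, 4.93 and 4.70 CPM (KO), though the place of the deletion in the gene is not known here. Of 14 nephron progenitor markers 13 passed the filter of 0.5 CPM in 2 libraries, with Eya1 at 168 to 274 CPM and Six2 at 18.6 to 31.9 CPM. Of the 13 tested, Osr1 alone had no overlap between groups, with KO higher as in the members and in 7.85% of all genes tested. Osr1 was at 22.3 and 19.5 CPM (WT) against 41.5, 64.6 and 27.3 CPM (KO). Its log2 fold change was 0.97 (unadjusted p = 0.0211, adjusted p = 1.00, limma), and its part in the levels of the members was not tested. Pax2, a defining marker, was too low to be tested and did not exceed 0.66 CPM in any library. Its KO libraries also lay above both WT libraries, at 0.05 and 0.18 CPM (WT) against 0.21, 0.66 and 0.33 CPM (KO). WT replicate 1 and KO replicate 3 carried Y-linked RNA (Ddx3y at 104 and 128 CPM) and little Xist, and the other 3 libraries carried Xist (765 to 951 CPM) and little Ddx3y. Mitochondrial ribosomal RNA took 40.7% and 38.9% of the WT libraries and 31.5% to 32.9% of the KO libraries, and the small nuclear RNA Rn7sk 2.27% to 11.9% over all 5.

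Igf2 was low in these cells. It was at 1.53 CPM (33 reads) in WT replicate 1 and 4.28 CPM (122 reads) in WT replicate 2. In KO it was at 10.9 CPM (510 reads), 12.8 CPM (409 reads) and 7.29 CPM (155 reads) in replicates 1, 2 and 3. The groups did not overlap, and the lowest KO library was 1.70 times the higher WT library. As bulk values, these levels cannot tell more RNA per cell from a larger share of expressing cells. The mean was 2.91 ± 1.94 CPM in WT (SD, n = 2) and 10.3 ± 2.78 CPM in KO (SD, n = 3), a ratio of 3.55. With limma the log2 fold change on the log2(CPM + 1) scale was 1.60 (SE 0.36), and it did not pass over all genes (unadjusted p = 0.00315, adjusted p = 1.00, limma). As a description, its p was the 36th smallest of the 14884 genes.

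Igf2os, the antisense transcript, was at 1.07 CPM (23 reads) and 2.35 CPM (67 reads) in WT. In KO it was at 4.11 CPM (193 reads), 6.18 CPM (198 reads) and 4.56 CPM (97 reads). The groups did not overlap, and the lowest KO library was 1.75 times the higher WT library. The mean was 1.71 ± 0.91 CPM in WT (SD, n = 2) and 4.95 ± 1.09 CPM in KO (SD, n = 3), a ratio of 2.89. The fitted log2 difference was 1.16 (SE 0.27), which did not pass over all genes (unadjusted p = 0.00349, adjusted p = 1.00, limma).

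H19 was abundant. It was at 301 CPM in WT replicate 1 and 1089 CPM in WT replicate 2, and at 1285, 3314 and 2165 CPM in KO replicates 1, 2 and 3, from 6485 to 106259 reads. The groups did not overlap, but KO replicate 1 was only 1.18 times WT replicate 2, while KO replicate 2 was 11.0 times WT replicate 1. The mean was 695 ± 557 CPM in WT (SD, n = 2) and 2255 ± 1017 CPM in KO (SD, n = 3), a ratio of 3.25. The fitted log2 difference was 1.87 (SE 0.59), and it did not pass over all genes (unadjusted p = 0.0167, adjusted p = 1.00, limma).

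**Figure D1:**
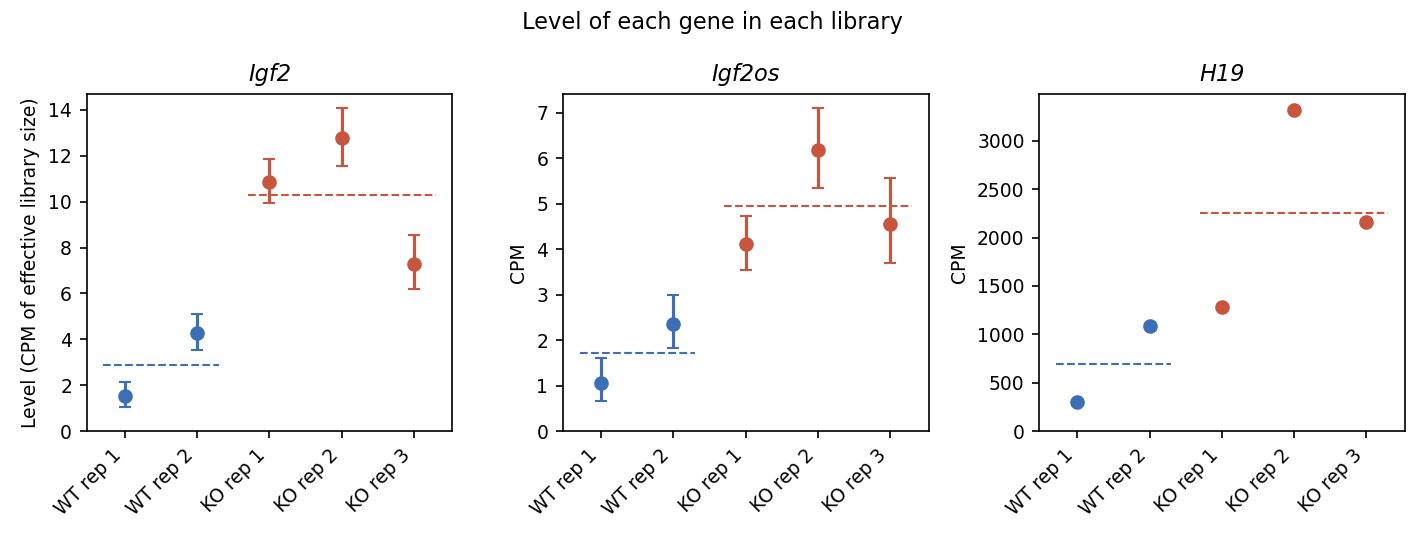
Level of Igf2, Igf2os and H19 in each library, in CPM of the effective library size on linear axes that start at 0. Points are libraries, bars are exact 95% Poisson intervals for counting error only (smaller than the points for H19), and dashed lines are group means; every KO library lies above both WT libraries in each panel.

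In all 3 genes, then, the lowest KO level exceeded the highest WT level, which 7.85% of the 14884 genes tested also showed (the reverse, with KO below both WT libraries, was seen in 6.98%). With WT replicate 2 also above WT replicate 1, as in all 3 members, the share was 4.08%. The threshold of an adjusted p under 0.05 was passed by 0.00672% of genes, which is 1 gene, the vault RNA gene Vaultrc5 (named after its values had been seen). An unadjusted p under 0.05 with a higher level in KO was seen for 1.5% of genes, and all 3 members were among these. KO over WT in the authors' deposited table had log2 fold changes of 1.82 for Igf2 (FDR = 0.258), 1.51 for Igf2os (FDR = 0.421) and 1.70 for H19 (FDR = 1). That table placed Igf2 in position 31, Igf2os in position 49 and H19 in position 273 of its 53927 rows by p-value, and 0.0315% of its rows had an FDR under 0.05.

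Levels per length separate H19 from the other two. Divided by exonic length, H19 ran from 122 to 1347 CPM per kb over the libraries, Igf2 from 0.267 to 2.23 CPM per kb and Igf2os from 0.200 to 1.16 CPM per kb. Igf2os was below Igf2 per kb in each of the 5 libraries. The lengths, 2460, 5723 and 5337 bases, are unions of all annotated exons and may differ from those the authors counted over.

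The WT libraries were far apart at this locus. WT replicate 2 was 2.80 times WT replicate 1 for Igf2 (exact 95% counting interval 1.89 to 4.25) and 2.20 times for Igf2os (1.36 to 3.71). For H19 it was 3.62 times WT replicate 1 (3.52 to 3.72). Each interval lies above 1, so the gap exceeds counting error in all 3 genes. On the log2(CPM + 1) scale the WT gap was 1.85 for H19, and only 0.309% of the 14884 genes tested, 46 in number, had a WT gap at least as large in either direction. The same share was 1.68% for Igf2, with a gap of 1.06, and 5.41% for Igf2os, with a gap of 0.69.

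**Figure D2:**
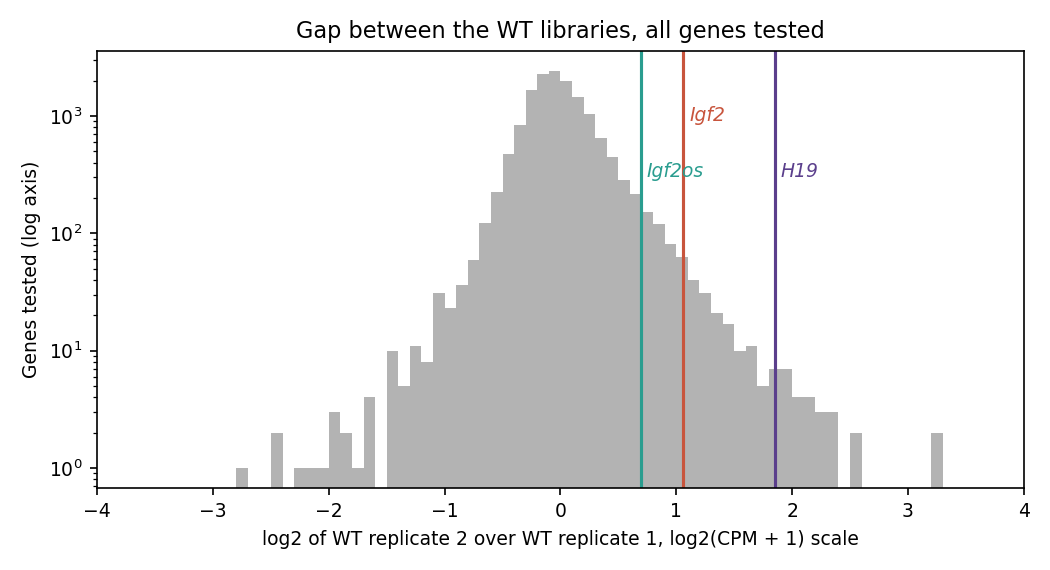
Histogram of the log2 ratio of WT replicate 2 to WT replicate 1 for the 14884 genes tested, on the log2(CPM + 1) scale, with the number of genes on a log axis. Vertical lines mark Igf2os at 0.69, Igf2 at 1.06 and H19 at 1.85, all to the right of the bulk of genes.

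The KO libraries differed from each other less in Igf2 and Igf2os than in H19. The highest KO library was 1.75 times the lowest for Igf2, 1.50 times for Igf2os and 2.58 times for H19. On the log2(CPM + 1) scale, which narrows the spans of low genes, 2.30% of genes tested had a KO span at least as large as that of H19. The same share was 15.2% for Igf2 and 33.2% for Igf2os. KO replicate 2 was the highest library for all 3 genes. From lowest to highest, H19 and Igf2os both ran WT replicate 1, WT replicate 2, KO replicate 1, KO replicate 3 and KO replicate 2, an order shared by 0.867% of genes tested. For Igf2 the order was the same except that KO replicate 3 lay below KO replicate 1, an order shared by 1.15%. The counting intervals of neighbours in these orders overlapped between KO replicates 1 and 2 for Igf2 (9.95 to 11.9 and 11.5 to 14.1 CPM). For Igf2os they overlapped between KO replicates 1 and 3 (3.55 to 4.74 and 3.70 to 5.56 CPM) and between KO replicates 3 and 2, the latter at 5.35 to 7.10 CPM. For H19 no neighbours overlapped.

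Whether the 3 transcripts differed by the same amount was asked with ratios inside each library, which do not depend on scaling between libraries. The ratio of H19 to Igf2 CPM was 197 and 254 in WT and 118, 260 and 297 in KO, so KO libraries lay on both sides of WT. On the log2 scale the KO mean differed from the WT mean by -0.10 (exact two-sided permutation p = 1.00 over libraries). The ratio of Igf2os to Igf2 was 0.699 and 0.549 in WT and 0.378, 0.484 and 0.626 in KO, with a log2 difference of -0.35 (exact permutation p = 0.40). The ratio of H19 to Igf2os was 281 and 463 in WT and 313, 536 and 475 in KO, with a log2 difference of 0.25 (exact permutation p = 0.50). Adjusted over the 3 ratios, the exact permutation p-values were 1.00, 0.75 and 0.75, and the smallest p that 2 against 3 libraries allow is 0.10, so no difference could have been called. The largest departure was in KO replicate 1, in which Igf2 was 7.10 times its level in WT replicate 1 and H19 4.27 times. Within KO, the ratio of H19 to Igf2 was therefore 2.51 times higher in the highest library, KO replicate 3, than in KO replicate 1.

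Likeness of pattern was measured as the root mean square difference between log2(CPM + 1) values, each centred on the gene's own mean, over the 5 libraries. It was computed against each of 13018 other genes averaging 1 CPM or more and is a description. The gene nearest to both Igf2 (0.23) and H19 (0.40) was Igfbp2, which encodes an IGF-binding protein. Igfbp2 was at 29.9 and 94.3 CPM (WT) against 136, 196 and 119 CPM (KO), so it shared the low value in WT replicate 1 and the high value in KO replicate 2. Igf2os was the second nearest to Igf2 (0.32), followed by 2900060B14Rik (0.32), the Y RNA gene Rny3 (0.34) and Hoxb5os (0.35). H19 was the 40th nearest to Igf2 (0.53), where the median over all genes was 0.90. Seen from H19, Igf2 was the 10th nearest and Igf2os the 19th (0.58), behind genes that include Igfbp2, the smooth muscle gene Cnn1 (0.44), the guidance cue gene Ntn1 (0.47) and Cpa6 (0.47).

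Igf2os was closest to Rny3 (0.06), which was at 629 and 949 CPM (WT) against 1442, 2018 and 1475 CPM (KO). The next were Scube3 (0.17), Fras1 (0.18), Pcp4l1 (0.19) and Gm24859 (0.21). The 1 added before logs narrows the range of Igf2os, at 1.07 to 6.18 CPM, and hardly changes that of Rny3. The nearness of Igf2os to Rny3 therefore depends in part on the added 1, and likeness without it was not computed. Igf2 was the 44th nearest to Igf2os. H19 was the 2815th, since the measure counts size as well as direction and H19 spanned a wider range than Igf2os. The added 1 makes up part of that gap in range. With no 1 added, the ratio of H19 to Igf2os varied 1.91-fold over the libraries, against 2.51-fold for H19 to Igf2.

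**Figure D3:**
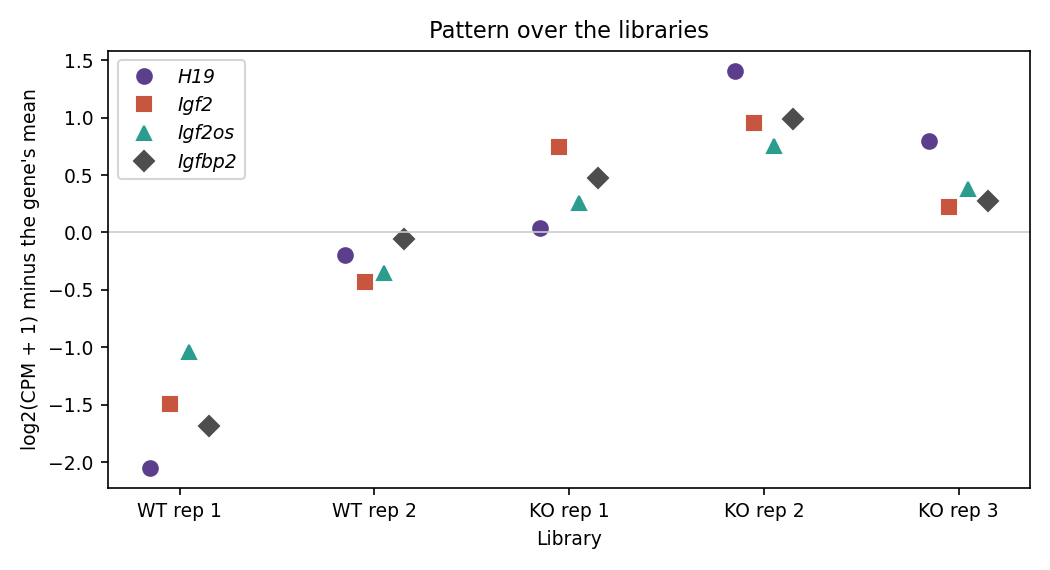
Log2(CPM + 1) of H19, Igf2, Igf2os and Igfbp2 in each library, minus the gene's own mean over the 5 libraries. Points are libraries, set side by side for legibility; WT replicate 1 is lowest and KO replicate 2 highest for all 4 genes, and H19 covers the widest range.

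Read strand bears on the antisense pair, because the labels name a stranded kit and no source used here gives the counting mode. Gm27483 and Gm27786 are short annotated RNAs that lie wholly inside H19 exons on the opposite strand. Gm27483 had 1 to 9 reads per library and Gm27786 1 to 5 reads, against 6485 or more of H19. Of 15 short features nested on the opposite strand in exons of genes at 50 CPM or more, 5 had a read in some library, against none of the 131 on the same strand. Igf2 and Igf2os share few exonic bases, 1.71% of Igf2 exonic length and 1.84% of that of Igf2os. This does not limit intronic reads, which total RNA can hold. Were strand not used, intronic reads of one gene could be counted for the other, since the spans overlap over 7124 bases. The size of such an exchange was not tested.

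The difference was also read within libraries of like sex-linked pattern, since these divide the WT group. Among the Y-linked libraries, KO replicate 3 over WT replicate 1 was 4.76 for Igf2, 4.26 for Igf2os and 7.20 for H19. Among the Xist libraries, KO replicates 1 and 2 over WT replicate 2 were 2.54 and 2.98 for Igf2, 1.75 and 2.63 for Igf2os, and 1.18 and 3.04 for H19. With the sex-linked pattern as a term, the log2 fold changes were 1.46 ± 0.20 for Igf2, 1.10 ± 0.25 for Igf2os and 1.75 ± 0.61 for H19 (± SE), and none passed (adjusted p = 1.00 each, limma).

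A single WT library sets much of the size of these differences. Without WT replicate 1, the log2 fold change was 1.07 for Igf2, 0.81 for Igf2os and 0.95 for H19. Without WT replicate 2, it was 2.13, 1.51 and 2.80. In both fits the remaining WT library was assumed to vary like the KO libraries. Without KO replicate 1, 2 or 3 it was 1.55, 1.44 and 1.81 for Igf2, 1.26, 1.02 and 1.20 for Igf2os, and 2.22, 1.54 and 1.85 for H19. With levels taken per library without mitochondrial genes and Rn7sk, whose shares differ as given above, it was 1.54 for Igf2, 1.11 for Igf2os and 1.80 for H19. The direction was the same each time, and no member passed over all genes in any of these fits (adjusted p from 0.253 to 1.00, limma).

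**Figure D4:**
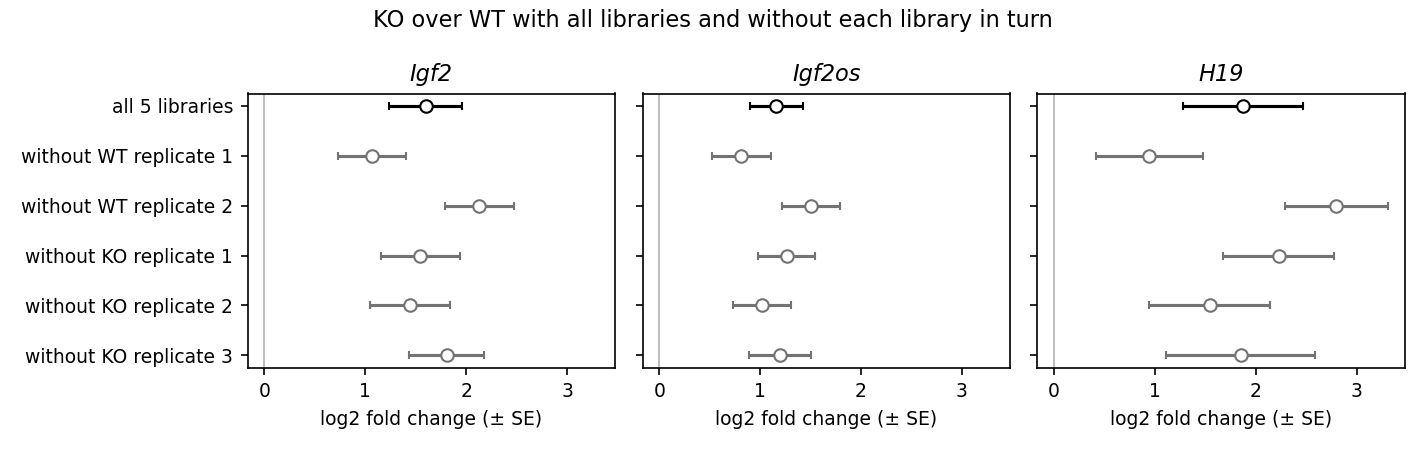
Log2 fold change of KO over WT for Igf2, Igf2os and H19 on the log2(CPM + 1) scale, with standard errors as bars, for all 5 libraries and without each library in turn. Every value is above 0, the smallest without WT replicate 1 and the largest without WT replicate 2; none passed over all genes.

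The neighbourhood was described next. Of 23 other genes listed along this part of chromosome 7, from Ctsd to Nap1l4, 10 passed the filter. Of these 7 were higher and 3 lower in KO, none passed over all genes (1 had an unadjusted p under 0.05, limma), and 2 had every KO library above both WT libraries, against 7.85% of all genes. Their median log2 fold change was 0.18, against 0.01 over all genes tested. The median is below the value of each member. Cdkn1c, a cell cycle inhibitor gene of the adjacent imprinted cluster, active on the maternal chromosome, was at 32.1 and 27.4 CPM (WT) against 59.6, 45.5 and 47.3 CPM (KO). The fitted log2 difference was 0.75 with SE 0.17 (unadjusted p = 0.00300, adjusted p = 1.00, limma), and its WT libraries were close together, unlike those of the members.

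Lsp1, an F-actin-binding protein gene on the other side of H19, was at 477 and 536 CPM (WT) against 563, 1049 and 656 CPM (KO), with a log2 fold change of 0.53. KO replicate 2 was its highest library, as for the members. Tnnt3, the fast skeletal troponin T gene, had a log2 fold change of 0.41, Tssc4 of 0.28, Cd81, a tetraspanin gene, of 0.24, Ctsd, the cathepsin D gene, of 0.11 and Nap1l4 of 0.10. Kcnq1ot1, the noncoding RNA that silences the paternal copy of the adjacent cluster, had -0.16, Slc22a18 had -0.12 and Mrpl23, the gene nearest to H19 among those tested, had -0.07. Both groups overlapped for each of these 8 genes. Of the neighbours not tested, 7 had at most 3 reads in every library, among them Ins2, the insulin gene next to Igf2.

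**Figure D5:**
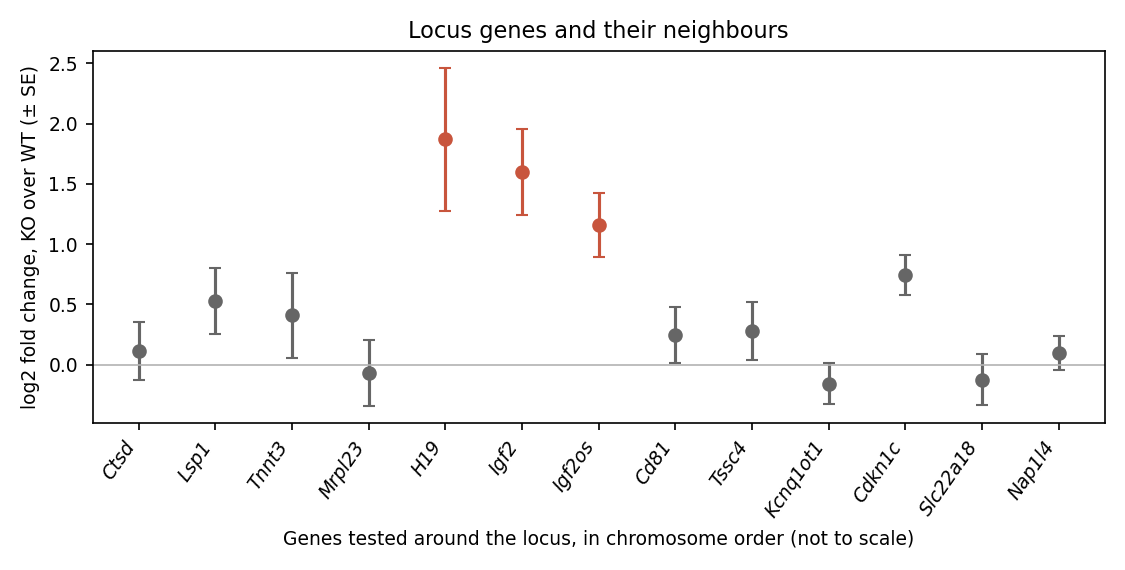
Log2 fold change of KO over WT, with standard errors as bars, for the members (red) and the 10 neighbouring genes tested (grey), in chromosome order and not to scale. H19, Igf2 and Igf2os lie between 1.16 and 1.87, and the neighbours between -0.16 and 0.75.

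Among IGF pathway genes, 15 of 21 others passed the filter, 11 higher and 4 lower in KO, with a median log2 fold change of 0.12. None passed over all genes, and 1 had an unadjusted p under 0.05 (limma). Of the binding protein genes, Igfbp2 had a log2 fold change of 1.45 with SE 0.46 (unadjusted p = 0.0162, adjusted p = 1.00, limma), and Igfbp5 of 0.79, at 405 and 150 CPM (WT) against 621, 332 and 375 CPM (KO). Igf2r, which takes Igf2 to the lysosome, was at 455 and 432 CPM (WT) against 498, 528 and 567 CPM (KO). Igf1r, the signalling receptor, was at 88.2 and 83.8 CPM (WT) against 94.2, 105 and 98.0 CPM (KO). The groups did not overlap for Igfbp2, Igf2r or Igf1r, with KO higher, and for Igf1 with KO lower, 3 and 1 of the 15 tested, against 7.85% and 6.98% of all genes. Igf1, the other growth factor gene, was at 1.07 and 1.16 CPM (WT) against 0.28, 0.94 and 0.52 CPM (KO).

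The genes that set or read the imprint showed small differences. Of 24 listed, 21 passed the filter, 8 higher and 13 lower, with a median log2 fold change of -0.03, and none had an unadjusted p under 0.05 (limma) or passed over all genes. Ctcf, named for its role at the control region, was at 88.6 and 78.2 CPM (WT) against 86.5, 73.8 and 86.2 CPM (KO). Zfp57, which protects imprints from demethylation, was the 1 gene without overlap (KO below both WT libraries, as in 6.98% of all genes), at 51.4 and 46.1 CPM (WT) against 38.7, 44.4 and 42.8 CPM (KO). Dnmt1, the maintenance DNA methyltransferase gene, had a log2 fold change of 0.19, Zfp445 of -0.13 and Zbtb33 of -0.14. Methylation itself was not measured.

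Of proteins that bind or process these RNAs, Igf2bp1 and Igf2bp2, IGF2 mRNA-binding protein genes, had every KO library above both WT libraries, with log2 fold changes of 0.15 and 0.19. So did Drosha, which encodes the nuclease that cuts primary microRNAs (0.14). These are 3 of the 12 tested, against 7.85% of all genes. Dgcr8, its partner, had a log2 fold change of -0.15. Of 12 genes tested in this list, 5 were higher and 7 lower, Dis3l2 among the latter (log2 fold change -1.24), which alone had an unadjusted p under 0.05 (limma), and none passed over all genes.

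Igf2 and H19 belong to a group of imprinted genes known to be expressed together in fetal growth. Of the 17 others tested, 13 were higher and 4 lower in KO, with a median log2 fold change of 0.26. None passed over all genes, and 1, Cdkn1c, had an unadjusted p under 0.05 (limma). With Cdkn1c and Igf2r, Peg10 made 3 of the 17 whose lowest KO level exceeded the highest WT level, against 7.85% of all genes. Peg10 was at 620 and 575 CPM (WT) against 1868, 655 and 871 CPM (KO). Dlk1 had a log2 fold change of 0.50 and Plagl1, which encodes a zinc finger protein that acts on this group, of 0.46, each with overlap.

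Other cell types known to express Igf2 or H19 were read through their markers. The 14 nephron progenitor markers summed to 1153 and 900 CPM (WT) against 1152, 950 and 1050 CPM (KO). The 14 renal stroma markers summed to 2058 and 3279 CPM (WT) against 1928, 3327 and 2978 CPM (KO). Foxd1, a defining stroma marker, was at 0.13 to 0.25 CPM, while Col1a2 was at 579 to 1025 CPM and Col3a1 at 283 to 684 CPM. Of 12 stroma markers tested, 5 were higher and 7 lower in KO, and Pdgfra alone did not overlap, with KO lower. The stroma and smooth muscle gene Acta2 had the largest fitted difference of this list, 1.26 with SE 0.84 (unadjusted p = 0.176, adjusted p = 1.00, limma). It was at 109 and 404 CPM (WT) against 167, 853 and 903 CPM (KO), so its groups overlapped. WT replicate 1 and KO replicate 1 were its lowest libraries. Each was also the lowest of its genotype for H19 and Igf2os, but in Igf2 the lowest KO library was KO replicate 3. The 9 skeletal muscle markers summed to 129 and 113 CPM (WT) against 132, 148 and 123 CPM (KO), most of it Des, with Myf5 at 0 and Myod1 at 1 read in WT replicate 2 and none elsewhere. Of 6 tested, 4 were higher and 2 lower. Myl1, a myosin light chain gene, was the 1 muscle marker without overlap, at 5.57 and 6.21 CPM (WT) against 3.2, 2.18 and 3.34 CPM (KO), with a fitted difference of -0.83 (unadjusted p = 0.00494, adjusted p = 1.00, limma). The 6 endothelial markers summed to 48.8 and 73.2 CPM (WT) against 60.4, 40.2 and 46.4 CPM (KO), and the 6 leukocyte markers to 7.65 and 7.28 CPM (WT) against 5.69, 5.01 and 5.13 CPM (KO). Tek among the endothelial and Mrc1 and Cd68 among the leukocyte markers had every KO library below both WT libraries. The part of these cell types in the levels of the members was not tested.

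Markers of differentiation stood as follows. The 10 markers of differentiating nephrons summed to 60.0 and 93.3 CPM (WT) against 63.4, 94.9 and 89.9 CPM (KO), with Lhx1 at 1 read in KO replicate 2 and none elsewhere. The 6 podocyte markers summed to 9.74 and 15.8 CPM (WT) against 9.34, 9.96 and 6.81 CPM (KO), and the 8 ureteric bud markers to 12.5 and 18.0 CPM (WT) against 19.8, 22.5 and 14.6 CPM (KO). Cdh6, of the nephron markers, had every KO library above both WT libraries. Their part in the levels of the members was likewise not tested. Cited1, which marks uncommitted progenitors, was at 15.2 and 1.40 CPM (WT) against 17.1, 4.74 and 2.73 CPM (KO). WT replicate 1 and KO replicate 1 had the most Cited1, and in both, H19 was at the lowest level of its genotype, at 301 and 1285 CPM. Igf2os was likewise lowest there, but Igf2 was lower in KO replicate 3 (7.29 CPM) than in KO replicate 1 (10.9 CPM). The part of the Cited1 difference in the levels of the members was not tested.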

How the data were processed

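The 5 libraries (2 WT, 3 KO) were made from total RNA with a stranded kit and read as 50-base single ends, per the labels' protocols. HISAT2 2.1.0, featureCounts, edgeR 3.20.1 and mm10 are named in the submitters' processing notes; the annotation, strand setting and multimapper rule were not given in the sources used here. The authors deposited 1 table with a signal per library, CPM scaled by an effective library size, with 2 decimals kept (column sums multiply to 1.00 per M), and their log2 fold change, log2 average, likelihood ratio score, p-value and FDR. The last 5 belong to the authors' own comparison, per the file headers, and are quoted as such.

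Low values lie on steps of 1 read. Below 100 CPM every value was 0.0055 CPM or less from a whole read, which gave 19.6 M to 49.3 M assigned reads per library. Rounding kept these from meeting the rule for a count test in all but 1 library, so the planned count model was replaced by limma 3.58.1 (R 4.3.3) with trend on log2(CPM + 1), genotype as the 1 term, for the 14884 genes that reached 0.5 CPM in 2 or more libraries. P-values are two-sided and adjusted by Benjamini-Hochberg over all genes, with a threshold of 0.05. The fit was run on simulated data, where it recovered 94% of 2-fold differences, with 12 false among 209 calls. The simulated libraries were independent and varied less than the WT libraries did for the members (coefficients of variation of 52.9% to 80.2%). It therefore does not show how the fit performs at that spread. Intervals and the 3-read floor cover counting error only.

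Gene symbols repeated in the table were taken at the row with the higher mean. Tut4 and Tut7 were read under their older symbols, Zcchc11 and Zcchc6. The members and lists were chosen with earlier results of these data known. Named genes were the members, Dis3l2, every neighbour tested, the 5 nearest genes by pattern (mean of at least 1 CPM), and from the other lists the 4 with the smallest p and any without overlap between genotypes; Ctcf and the cell type markers were named for their role. A gene among those nearest by pattern is not reported here. Alternatives changed the pseudocount, filter, scaling, trend, terms and libraries.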

Additional observations from a re-analysis of the deposited data

How the results depend on the processing

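Igf2, Igf2os and H19 were higher in KO, without passing over all genes, under 9 alternatives each: pseudocounts of 0.1 and 5, no filter, a filter of 1 CPM in every library, 3 other scalings, no trend and a sex-linked term. The log2 fold change ran from 0.96 to 1.92 for Igf2, 0.57 to 1.56 for Igf2os and 1.75 to 1.90 for H19 (adjusted p from 0.958 to 1.00, limma). The ends for Igf2 and Igf2os are the 2 pseudocounts, which weigh on low values by construction. Without each library in turn it ran from 1.07 to 2.13, 0.81 to 1.51 and 0.95 to 2.80. With a replicate block, all 3 passed: 1.81 for Igf2 (adjusted p = 0.0300), 1.20 for Igf2os (adjusted p = 0.0300) and 1.85 for H19 (adjusted p = 0.0213, limma). That fit rests on replicates 1 and 2, as KO replicate 3 has no WT partner. No label says what the numbers share, so the samples share only a number. Across genes the deviations of WT replicates 1 and 2 correlated at 0.41 and 0.54 with those of KO replicates 1 and 2. That counts as a hint from the data. With 2 WT libraries, the deviations of each are the exact opposite of the other's, so these values are not independent. Over all genes, 1 passed the threshold, and 390 did with the replicate block. The count was 0 with a pseudocount of 5 (413 at an unadjusted p under 0.05, limma), no filter (1098), median-of-ratios scaling (411), the sex-linked term (356) or no trend (425). Without each library in turn it ran from 0 to 8, with 5 without KO replicate 1, 8 without KO replicate 3 and 0 without WT replicate 1, WT replicate 2 or KO replicate 2 (228 to 360 unadjusted). The cause was not tested.

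The log2 difference of the H19 to Igf2 ratio changed sign, to 0.27, with 1 added to both levels, and ran from -0.35 to 0.31 without each library in turn. That of H19 to Igf2os ran from -0.11, without WT replicate 1, to 0.61, and that of Igf2os to Igf2 from -0.53 to -0.17. With a replicate block they were -0.35, 0.18 and -0.53, values with no test. Depth limits Igf2 and Igf2os, at 23 to 122 reads in WT.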
